A study of Mus musculus with 21 samples.

Results

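The Hox genes encode homeodomain transcription factors that assign position along the body axis, and in the mouse they lie in 4 clusters on separate chromosomes. The 39 protein-coding genes whose symbol is Hox followed by a cluster letter and a paralogue number were followed here, out of 21887 protein-coding genes in the RefSeq table for GRCm38.p6. HoxA on chromosome 6 holds 11 of them, HoxB on chromosome 11 holds 10, HoxC on chromosome 15 holds 9 and HoxD on chromosome 2 holds 9. The choice rests on names alone, with no limit on gene length and no measured value.

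Genes of a cluster are numbered by their order, low numbers acting towards the head and high numbers towards the tail, and cells keep a memory of the part of the cluster they use. Polycomb proteins hold the unused part silent through methylation of lysine 27 of histone H3, and Trithorax proteins keep the used part active. The enzyme SETD2 adds the third methyl group to lysine 36 of that histone, and the product, H3K36me3, lies over the bodies of transcribed genes rather than on their promoters.

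The mark was mapped by chromatin immunoprecipitation and sequencing in C2C12, a mouse myoblast line that fuses into muscle cells in culture. Wild-type (WT) cells gave 2 libraries per group, a day 0 group and, for each of days 1 and 5, a group in control medium and a group under methionine restriction. A pair of Setd2 knockout (KO) lines, called line 1 and line 2 in the labels, gave 1 library each in the same 5 conditions. The labels give neither the composition of the media nor how the lines were made, and they do not say whether the WT replicates were separate cultures, so that p-values measure the spread between these libraries, which may be technical.

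Each library is represented by a list of broad peaks, and the values below are cover, the percent of a gene body that lies inside merged peaks. Marked, below, means a cover of 50% or more. Cover says how far peaks were called along a gene and not how much of the mark is there. In such bulk samples, fewer cells carrying the mark and less of it per cell cannot be told apart. The read depth is unknown, since peak lists carry none. WT lists covered 110 to 183 Mb. KO line 1 covered 0.307 to 74.1 Mb and KO line 2 covered 0.00821 to 7.13 Mb, and the restricted day 1 lists of both KO lines stand apart, with 791 and 127 peaks. The Setd2 gene was covered to between 45.6% and 82.8% in the WT libraries, to at most 24.0% in line 1, and was listed at 0 in all of line 2. Of the muscle differentiation markers, 9 of 10 were marked at day 5 in control medium, against 1 at day 0. Markers of hepatocytes, T cells, pluripotent cells and endothelial cells, 3 of each, were listed at 0 in all WT libraries, as were 2 of 4 neuronal and 2 of 3 adipocyte markers. Of the other neuronal ones, Tubb3, which encodes a beta-tubulin, had a mean of 64.2% in the day 0 group and 62.8% in the day 1 control group, and Rbfox3 was at most 0.0678% in a WT library.

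Of the sequences that bear on the clusters, the promoter that was most covered and a HoxA promoter that was never covered are shown, as the 250 bases before the annotated start on the coding strand. CG pairs, the sites of DNA methylation, are in capitals. The Hoxa5 promoter lies at chr6:52204588-52204837 and the Hoxa10 promoter at chr6:52240855-52241104, both on the minus strand of GRCm38.p6, and both sequences are RefSeq's.
Hoxa5: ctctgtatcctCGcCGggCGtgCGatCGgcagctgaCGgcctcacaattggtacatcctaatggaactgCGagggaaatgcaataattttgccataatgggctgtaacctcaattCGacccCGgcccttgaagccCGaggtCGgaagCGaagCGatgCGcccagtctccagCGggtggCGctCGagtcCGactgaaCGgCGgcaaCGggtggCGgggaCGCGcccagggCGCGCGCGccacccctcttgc
Hoxa10: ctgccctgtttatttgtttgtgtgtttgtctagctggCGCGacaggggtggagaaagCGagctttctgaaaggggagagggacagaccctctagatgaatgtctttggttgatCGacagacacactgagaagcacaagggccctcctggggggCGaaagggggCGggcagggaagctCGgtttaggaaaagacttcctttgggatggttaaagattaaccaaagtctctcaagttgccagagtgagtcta

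The Hoxa5 stretch holds 28 CG pairs and the Hoxa10 stretch 7. With the 50 bases after the start included, the Hoxa5 window was inside peaks over its whole length in all 10 WT libraries. The Hoxa10 window shown was outside peaks in all of them, and it was taken by symbol from several windows tied at 0. Windows were in the table for 22 of the 39 genes, 24 windows in all, and their mean WT cover was above 0 for 4. Besides Hoxa5 these were Hoxc4 at 50%, Hoxa2 at 40.9% and another Hoxa10 window at 2.6%. Of all 32851 windows in the table, 5.40% had a mean WT cover above 0 and 2.01% had at least 50%. The Hoxa5 window also lies inside the annotated body of Hoxa3, a long gene model that spans Hoxa4, Hoxa5 and Hoxa6, so its cover is that of a gene body too. The Hoxc4 window and the covered Hoxa10 window likewise lie inside the annotated bodies of their own genes. The number of CG pairs ranged from 4 to 45 over the members' windows, with a median of 14.5 against 7 over all windows. Windows without cover in WT held as many as 45 (Hoxa13) and as few as 4 (Hoxa9). The covered windows held 29 (Hoxa5), 21 (the other Hoxa10 window) and 9 (Hoxc4 and Hoxa2 each). The TATA box letters TATAAA, searched on both strands, were in 4 of the 24 windows and in 13.6% of all windows. TGATTNAT, letters bound by Hox proteins with their PBX partners, was in 2 of them, those of Hoxa2 and Hoxd11, and in 3.22% of all windows.

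The mark was called on HoxA and HoxC and was nearly absent from the lists of HoxB and HoxD. In WT cells at day 0, peaks covered 27.7% of the bases in HoxA gene bodies, with 26.2% and 29.3% in the libraries, and 14% of those in HoxC, with 10.2% and 17.7%. No peak of any of the 20 libraries touched the HoxB span of 173.9 kb. In HoxD 1 peak was listed, in Hoxd3 in replicate 2 of restricted day 1, where it covered 1.27% of the gene. All 10 Hoxb genes, all Hoxd genes other than Hoxd3, and Hoxa13, Hoxc11 and Hoxc12 were thus listed at 0 in every library.

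**Figure D1:**
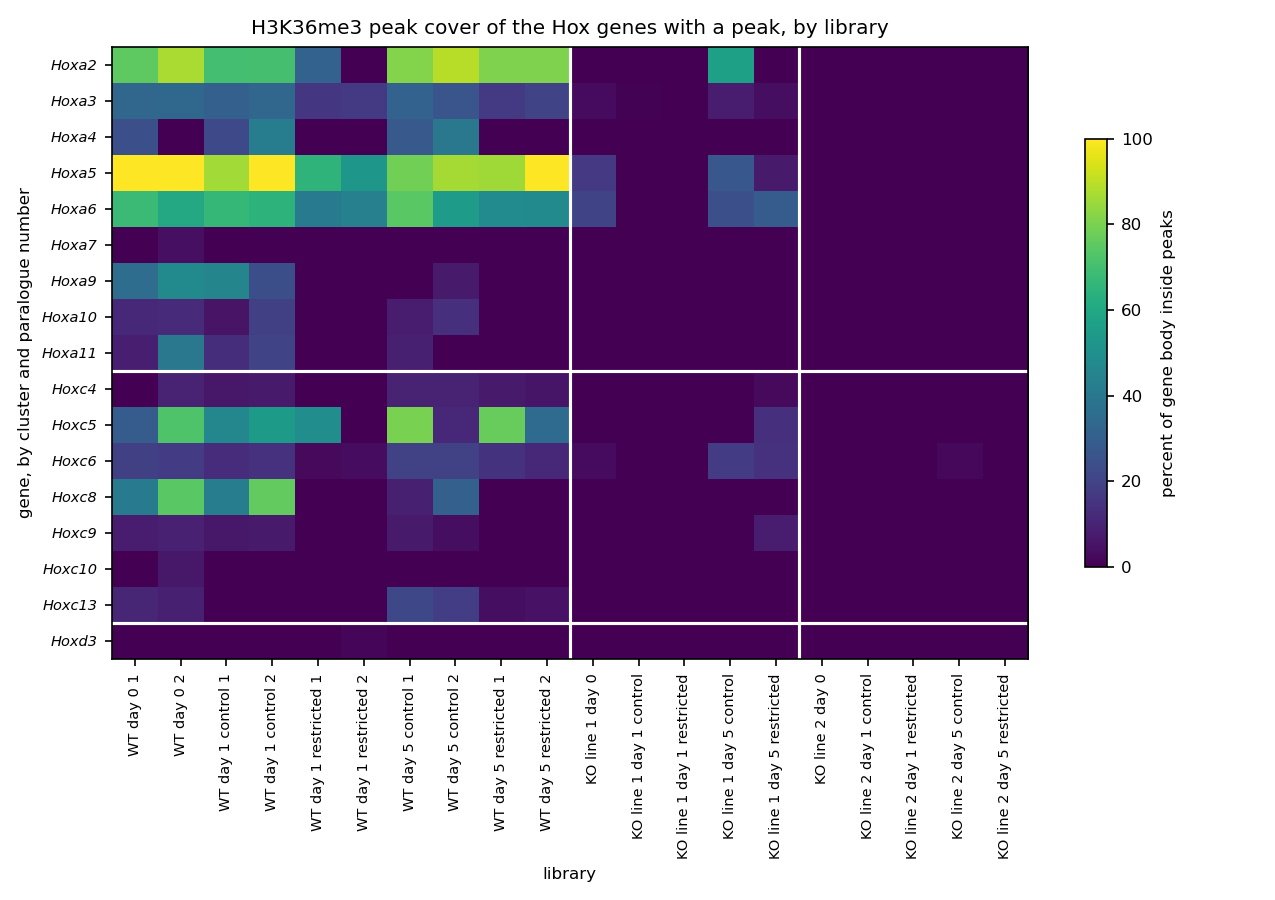
Percent of each Hox gene body inside peaks (colour, 0 to 100%) for the Hox genes with cover in at least 1 library (rows, by cluster and paralogue number) in the 20 libraries (columns, WT then KO line 1 then KO line 2). HoxB has no row, since it is at 0 throughout, Hoxa5 is at 53.0% or more in all 10 WT libraries, and KO line 2 holds a value above 0 for Hoxc6 alone.

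Counted over the family, 22 of 39 genes had no cover in any library, a share of 56.4% against 39.7% of all protein-coding genes. A mean of at least 5% over the 10 WT libraries was reached by 13 members, 33.3% against 44.2% of all genes. A mean of at least 50% was reached by Hoxa5, Hoxa2 and Hoxa6, 7.69% of members against 18.6% of all genes. Hoxa5 alone was marked in every WT library, 2.56% of members against 8.89% of all genes, and Hoxa3, Hoxa5, Hoxa6 and Hoxc6 were above 0 in every one, 10.3% against 39.5%. In single WT libraries between 5 and 15 members had any cover. The libraries with the fewest were those of restricted day 1, with 6 and 5, and those of day 0 had 13 and 15. Of all genes, 44.5% to 48.8% had any cover in these libraries, so the share of Hox genes, 12.8% to 38.5%, was below that of all genes in each.

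HoxB lay in a stretch without WT peaks of 579.7 kb, chr11:96184132-96763826, which holds the 10 Hoxb genes and Skap1. The nearest WT peak was 10.2 kb beyond the Hoxb13 end and 395.6 kb beyond the Hoxb1 end, and the neighbours Ttll6, Calcoco2 and Atp5g1 on the Hoxb13 side were at 0 in the WT libraries. Past Skap1, Snx11 had a mean WT cover of 70.6% and Cbx1, which encodes the heterochromatin protein HP1 beta, 63.1%. Around HoxD, Evx2 next to Hoxd13 was at 0, Lnpk had 23.0% and Mtx2 6.59%. Evx1, the homeobox gene next to Hoxa13, was at 0 in all 20 libraries, and Skap2 on the opposite side of HoxA had 4.35%. Beside HoxC, Smug1, a uracil-DNA glycosylase gene, had 31.9% and Calcoco1 71.2%. The covered HoxA and HoxC genes thus stood between neighbours that ranged from no cover to most of the body covered.

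Hoxa5, which is known from lung and axial patterning, was the most covered member (gene 15402, chr6:52201754-52204587, minus strand). Its mean over the WT libraries was 85.5%, above the means of 98.8% of all protein-coding genes. Its cover was 100% in both day 0 libraries, 86.1% and 100% in the day 1 control libraries, and 78.7% and 86.7% in those of day 5. Under restriction the values were 65.1% and 53.0% at day 1 and 85.9% and 100% at day 5. Hoxa5 was marked in each of these 10 libraries, and only the restricted day 1 libraries were below 78%.

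Hoxa6, a gene of the same paralogue-rich middle of the cluster (gene 15403, chr6:52204858-52208672), had a mean of 56.9%. Its libraries ranged from 40.8% at restricted day 1 to 74.3% at day 5 in control medium. The cover was on its 3′ side: split at the midpoint, the 3′ part was covered to 99.2% and the 5′ part to 29.3% on average at day 0. Most genes lean that way, since the 3′ part was the more covered in 83.6% to 87.9% of the 7854 genes with a strand and a mean of at least 5%, depending on the WT group. A single peak ran through Hoxa5 and into Hoxa6 in several libraries, with the longest at 7.31 kb in replicate 1 of day 0. In the restricted day 1 libraries the longest peaks there were 3.10 and 2.22 kb. The authors' fold enrichment of the longest peak exceeded that of 96.5% and 98.2% of the peaks in the day 0 lists, and of 93.4% and 49.0% of those in the restricted day 1 lists, which differ in length, so these ranks show no change.

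Hoxa2, a selector gene of the hindbrain and the branchial arches (gene 15399, chr6:52162417-52164831), had a mean of 66.7%. Both day 0 libraries (75.2% and 87.2%), both day 1 control libraries (70.0% and 70.5%) and all 4 day 5 libraries (81.3% and 89.4% in control medium, 80.7% and 80.7% under restriction) were high. The restricted day 1 libraries were at 31.3% and 0. Hoxa3, needed for the thymus and parathyroid, had a mean of 25.8% over a body of 44.0 kb, of which 19.7% is shared with the genes nested in it. Hoxa4 (mean 15.7%), Hoxa9 (16%), Hoxa10 (6.93%) and Hoxa11 (9.04%) were less covered, and for all 4 of them the restricted libraries of both days were at 0. The cover of Hoxa9, Hoxa10 and Hoxa11 at day 0 was on the 3′ side, with 76.2%, 23.3% and 48.1% of the 3′ part and 7.49%, 0 and 0 of the 5′ part. Hoxa2 and Hoxa3 had more on the 5′ side at day 0, with 85.1% and 38.8% of the 5′ part against 77.3% and 27.5% of the 3′ part. Hoxa5 was covered throughout. The 5′ part of Hoxa3 holds Hoxa5 and Hoxa6, so their cover is counted in it. In control medium Hoxa2 leaned to the 3′ side, with 83.8% against 56.8% at day 1 and 100% against 70.8% at day 5. At restricted day 5 it leaned to the 5′ side, with 88.0% against 73.5%.

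**Figure D2:**
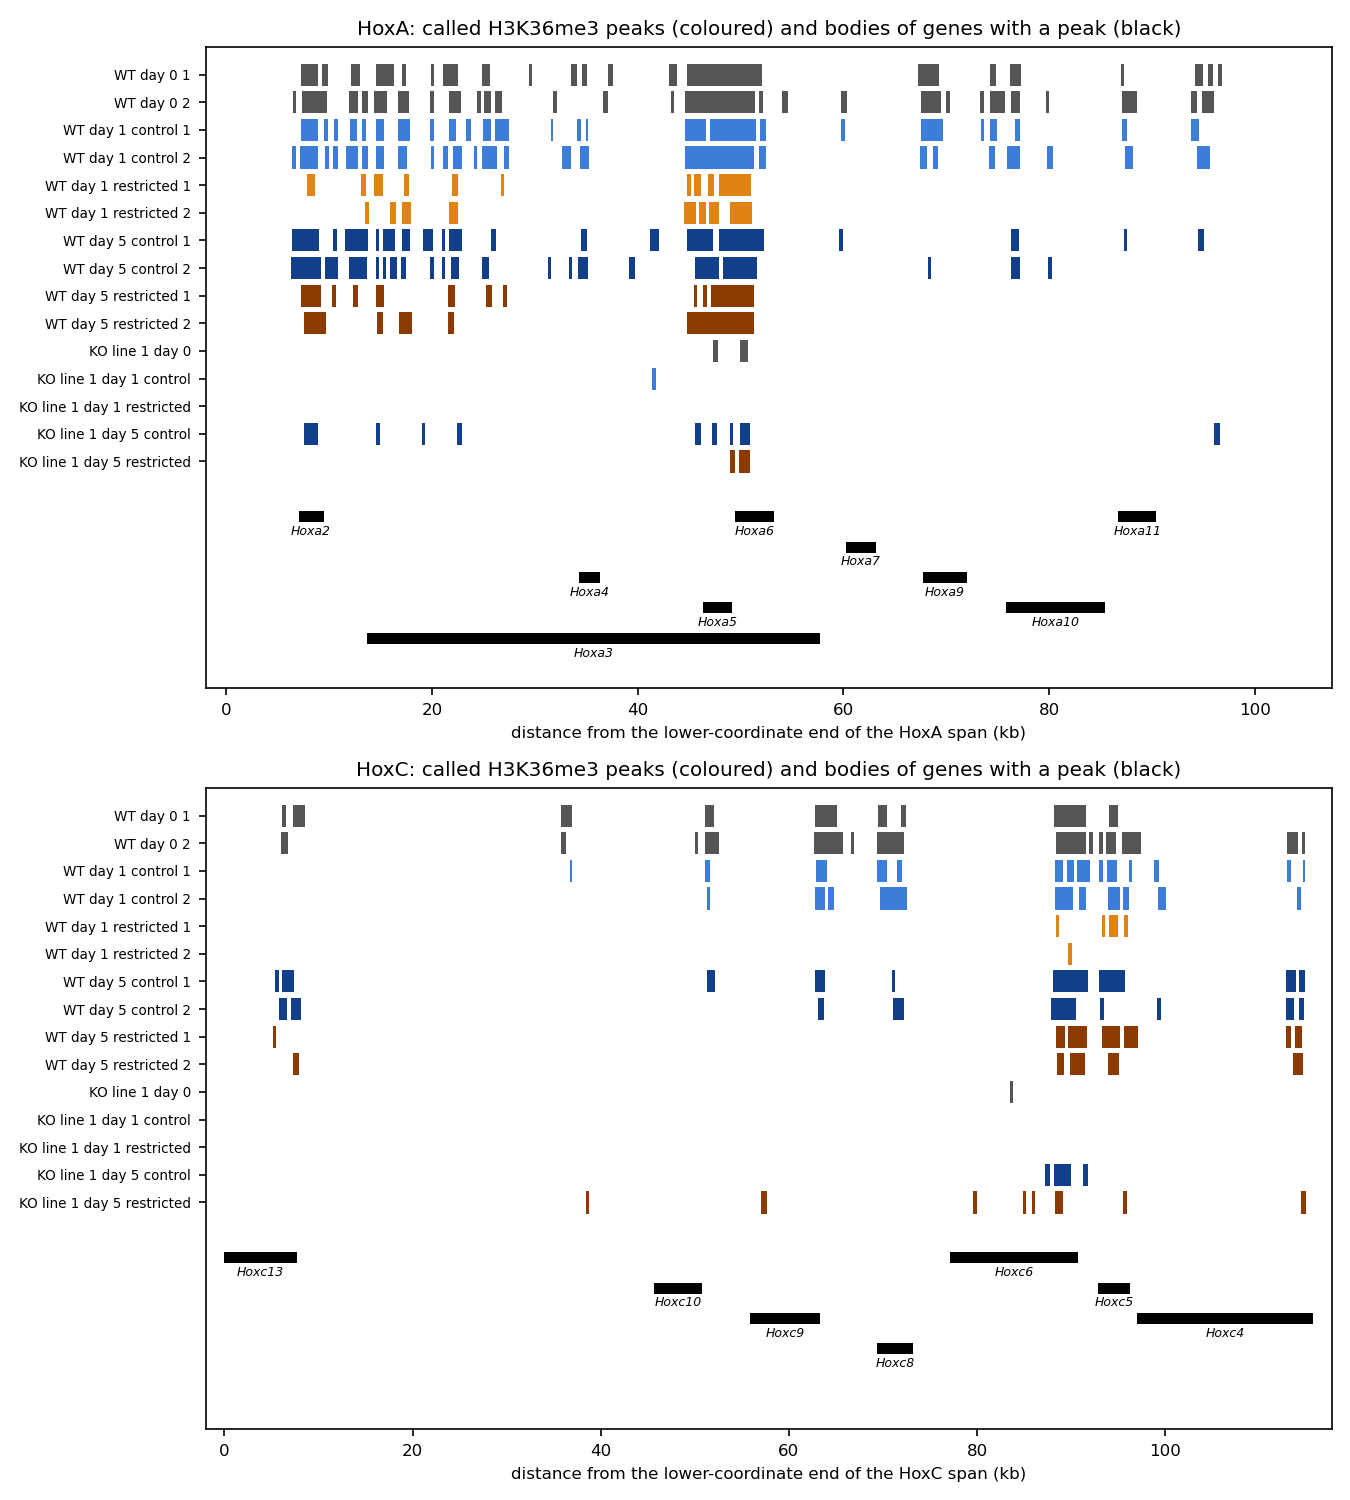
Called peaks (coloured bars by condition) in the 10 WT libraries and the 5 libraries of KO line 1, drawn to scale along HoxA (top) and HoxC (bottom), with the bodies of genes that had a peak in at least 1 library in black. The horizontal axis is the distance in kb from the lower-coordinate end of each cluster, and the broad block over Hoxa5 and Hoxa6 is present in all 10 WT libraries.

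In HoxC, Hoxc5 had the highest mean, 45.4%, with a wide spread between replicates: 79.9% and 11% at day 5 in control medium and 49.1% and 0 at restricted day 1. Hoxc8, which acts in brachial motor neurons and the thoracic skeleton, had a mean of 27.3%. Its libraries had 40.8% and 74.6% at day 0, 42.6% and 75.9% in day 1 control medium, and 8.67% and 30.5% in that of day 5. Hoxc6 had a mean of 13.5% and was above 0 in all 10 WT libraries, from 2.42% to 19.9%. Hoxc4 had a mean of 5.58% and Hoxc13, known for hair and nail formation, 6.84%.

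Some members were below the 5% mean and yet above 0 in a library. Hoxc9 reached 9.35% at day 0, Hoxc10 6.41% and Hoxa7 4.13% in replicate 2 of day 0, and Hoxd3 1.27%. Hoxc10 and Hoxa7 were above 0 in that library alone. Hoxc9 was above 0 in both WT libraries of day 0 and of each control group, and at 0 in the 4 restricted ones.

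Noncoding genes within the cluster spans followed their clusters. In HoxA 11 of 12 noncoding genes had cover in at least 1 WT library, in HoxC 2 of 5, in HoxB none of 9 and in HoxD none of 5. The antisense gene Hoxaas3, which overlaps Hoxa5 and Hoxa6, had a mean of 43.8%, and Hoxaas2, between Hoxa2 and Hoxa3, 33.7%. Since peaks carry no strand, the mark on a Hox gene and on its antisense partner cannot be told apart. Hotair, a long noncoding RNA gene of HoxC, was at 0 in all libraries.

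Hox clusters also hold microRNA genes, which are cut from transcripts of the clusters and repress other messages through their seed, bases 2 to 8. The mature arms are shown because one seed, that of miR-196, occurs in HoxA and HoxC, which had peaks, and in HoxB, which had none. Seeds are in capitals, and the sequences are RefSeq's.
mmu-miR-196b-5p: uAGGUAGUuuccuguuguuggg
mmu-miR-196a-5p: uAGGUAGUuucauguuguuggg
mmu-miR-10a-5p: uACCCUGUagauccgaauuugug
mmu-miR-10b-5p: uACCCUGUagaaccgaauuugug
mmu-miR-615-3p: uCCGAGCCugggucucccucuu

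The arms miR-196a-5p and miR-196b-5p share the seed AGGUAGU, and miR-10a-5p and miR-10b-5p share ACCCUGU. Mir196b in HoxA, upstream of Hoxa9, had its 5p arm inside peaks in 3 WT libraries, both of day 0 and replicate 1 of day 1 in control medium. The miR-196a-5p sequence comes from a pair of genes: Mir196a-2 in HoxC was inside a peak in 1 WT library, and Mir196a-1 in HoxB in none. Mir10a in HoxB and Mir10b in HoxD were in none. Mir615, which lies in Hoxc5, had its 3p arm inside peaks in 4 WT libraries. No microRNA of the clusters was inside a peak in a KO library.

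Methionine, the source of the methyl groups of S-adenosylmethionine, was restricted to ask how the mark responds, and the day 1 comparison came out lower for most covered Hox genes. At day 1, peaks covered 25.8% of HoxA gene-body bases in control medium (24.6% and 27%) and 10.2% under restriction (10.4% and 10.1%). In HoxC they covered 11.8% (10.4% and 13.3%) and 1.92% (3.16% and 0.686%). The groups did not overlap in either cluster. Of 13 members tested, those with a mean of at least 5% over the WT libraries, 9 fell in the limma fit across all genes at an adjusted p under 0.05 and none rose. The background was high, as 38.1% of the 9681 genes tested were called, 35.8% with less cover and 2.3% with more. The median difference was −23.3 points over the members tested and −8.11 over all genes. Both control libraries were above both restricted ones for 12 of the 39 members, 30.8% against 27.6% of all genes, and the opposite held for none, against 6.4%. Since members had to pass the filter, these counts describe the covered genes and not the family. Hoxa4, Hoxa9, Hoxa10, Hoxa11 and Hoxc8 were at 0 in every restricted WT library of both days. They passed the filter through day 0 and control values alone, so they could not come out higher under restriction.

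**Figure D3:**
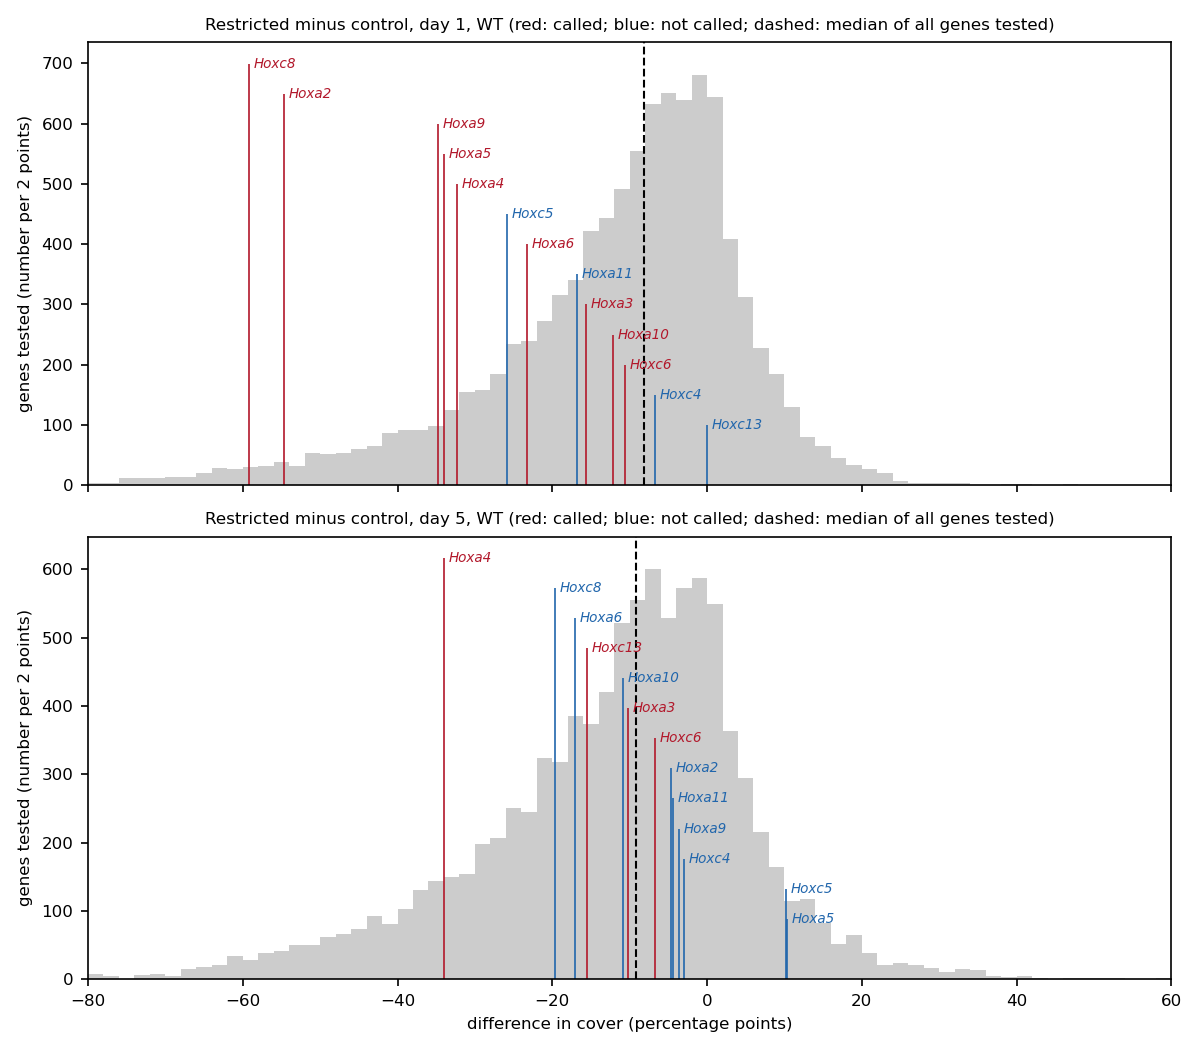
Difference in cover, restricted minus control (horizontal axis, percentage points), at day 1 (top) and day 5 (bottom) in WT cells. Grey bars count all genes tested, the dashed line is their median, and vertical lines mark the 13 Hox genes, red where called at an adjusted p under 0.05 (limma), 9 at day 1 and 4 at day 5; line height has no meaning.

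The largest falls at day 1 were those of Hoxc8 and Hoxa2. Hoxc8 went from 42.6% and 75.9% to 0 in both restricted libraries, a difference of −59.2 points (SE 13.3, limma adjusted p = 0.00963). Hoxa2 went from 70.0% and 70.5% to 31.3% and 0, a difference of −54.6 (SE 9.04, adjusted p = 0.00231). Neither gene's groups overlapped. Without replicate 2 of either day 1 group the call of Hoxc8 was lost, while that of Hoxa2 held in every fit with a library left out. With only peaks of a −log10 q of at least 3, the difference of Hoxc8 was 0. In lists trimmed to equal length, described below, the call of Hoxa2 was lost.

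Hoxa9 was at 45.7% and 23.9% in control medium and at 0 in both restricted libraries (difference −34.8, SE 6.81, limma adjusted p = 0.00513). Hoxa4 was at 22.1% and 42.5%, then at 0 and 0 (−32.3, SE 8.77, adjusted p = 0.0212). Hoxa10, a gene of the lumbar skeleton and the uterus, was at 5.23% and 19.1%, then at 0 and 0 (−12.1, SE 4.05, adjusted p = 0.0460), and this call held in 5 of 19 alternatives. The call of Hoxa4 was lost without replicate 2 of day 1 control or either restricted day 1 replicate, and that of Hoxa10 was lost without any 1 WT library other than day 0 replicate 2 and replicate 1 of day 1 control. These genes lost all called cover. Hoxa5 and Hoxa6 kept part of theirs: Hoxa5 went from 86.1% and 100% to 65.1% and 53.0% (−34.0, SE 6.37, adjusted p = 0.00419), and Hoxa6 from 66.4% and 64.7% to 40.8% and 43.7% (−23.3, SE 6.07, adjusted p = 0.0178). Hoxa6 lost its call without any 1 of the 4 day 1 libraries, and Hoxa5 kept it without each.

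Hoxa3 fell from 30.7% and 33.1% to 15.7% and 16.8% (−15.6, SE 3.19, limma adjusted p = 0.00608), in part over bases it shares with the nested genes. Counted on the bases of no other gene, it was again called. Hoxc6 fell from 12.6% and 14.1% to 2.42% and 3.20% (−10.5, SE 2.09, adjusted p = 0.00529). The rest were not called: Hoxa11 differed by −16.8 points (95% interval −36.5 to 2.89), Hoxc5 by −25.8 (−86.2 to 34.6) and Hoxc4 by −6.77 (−13.5 to −0.0445), while Hoxc13 was at 0 in all 4 day 1 libraries. With each library centred on its median over genes, as described below, Hoxa10 turned to 3.35 points and Hoxc6 to 4.95. The other called genes stayed lower.

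Several of these genes lost all called cover under restriction. Of the 13 members above 0 in both control libraries of day 1, 7 were listed at 0 in both restricted libraries, namely Hoxa4, Hoxa9, Hoxa10, Hoxa11, Hoxc4, Hoxc8 and Hoxc9, which is 53.8% against 5.52% of all genes so counted. At day 5, 4 of 12 were (33.3% against 5.52%): Hoxa4, Hoxa10, Hoxc8 and Hoxc9. The shares of all genes were not matched for starting cover. In day 1 control medium Hoxc4 was at 6.48% and 7.06%, Hoxc9 at 6.54% and 7.06% and Hoxa10 at 5.23% and 19.1%. Higher values were those of Hoxa11 (13.1% and 20.4%), Hoxa4 (22.1% and 42.5%), Hoxa9 (45.7% and 23.9%) and Hoxc8 (42.6% and 75.9%).

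The restricted lists were shorter as a whole, and the part of list length in the Hox calls was not tested on its own. At day 1 they covered 128 and 110 Mb, against 140 and 150 Mb in control medium, and at day 5 131 and 134 Mb against 183 and 171 Mb. When the lists were trimmed, keeping peaks of highest fold, to the length of the shortest WT list, 110 Mb, only 6 members passed the filter, and at day 1 2 were called, Hoxa5 and Hoxc5, both lower. At day 5 none of 6 was called, and none had an unadjusted p under 0.05. After each library was centred on its own median over genes, which moved the median difference at day 1 from −8.11 to 7.38, 3 members were called lower at day 1 (Hoxa2, Hoxa5 and Hoxc8) and 1 higher (Hoxc13), and 3 higher and none lower at day 5. Hoxc13 was at 0 in every WT day 1 library of either medium, so its call there is the centring shift alone and no gain of cover. Over all genes that centred fit called 3601 higher and 1262 lower, against 223 and 3470 without centring. Summed cover of the 10 muscle differentiation markers also moved, from 348.8 to 84.9 points at day 1 and from 812.4 to 323.3 at day 5, and that of the 7 myoblast markers from 383.4 to 197.5 and from 342.9 to 201.1. Their part in the Hox result was not tested.

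At day 5 fewer Hox genes were called under restriction, and the most covered, Hoxa5 and Hoxa2, were not among them. HoxA bodies were covered to 21.9% in control medium (23.0% and 20.9%) and 13.8% under restriction (12.7% and 15%), and HoxC bodies to 13.7% (15.3% and 12%) and 8.26% (9.89% and 6.63%), without overlap. Of 13 members tested 4 fell and none rose, where 41.4% of all genes were called lower and 4.26% higher. Both control libraries were above both restricted ones for 10 of the 39 members, 25.6% against 31.6% of all genes, and the opposite held for none, against 7.02%. The members' median difference was −6.67 points against −9.24 over all genes.

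Hoxa4 fell from 27.8% and 40.2% to 0 and 0 (−34.0, SE 8.77, limma adjusted p = 0.0143). Hoxc13 fell from 21.8% and 18.1% to 3.79% and 4.96% (−15.6, SE 1.82, adjusted p = 0.000325). Hoxa3 fell from 31.5% and 26.4% to 16.8% and 20.6% (−10.2, SE 3.19, adjusted p = 0.0307), and Hoxc6 from 19.9% and 19.8% to 14.7% and 11.6% (−6.67, SE 2.09, adjusted p = 0.0312). The groups of these 4 genes did not overlap. After centring, the differences turned to 1.38 points for Hoxc13, 6.69 for Hoxa3 and 10.3 for Hoxc6, while Hoxa4 stayed lower and lost its call. Hoxa6 was also lower in both restricted libraries, at 48.2% and 47.5% against 74.3% and 55.3%, but missed the threshold with a limma adjusted p of 0.0503, as did Hoxa10 with 0.0588. Hoxa5 differed by 10.3 points (95% interval −4.40 to 25) and Hoxa2 by −4.64 (−25.5 to 16.2), neither of them called. The calls of Hoxa3, Hoxa4 and Hoxc6 were each lost without restricted replicate 1 and without restricted replicate 2, which left 1 called gene, Hoxc13. That of Hoxa3 was also lost without day 5 control replicate 1, that of Hoxa4 without day 5 control replicate 2, and that of Hoxc6 without either of these or day 1 control replicate 1.

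**Figure D4:**
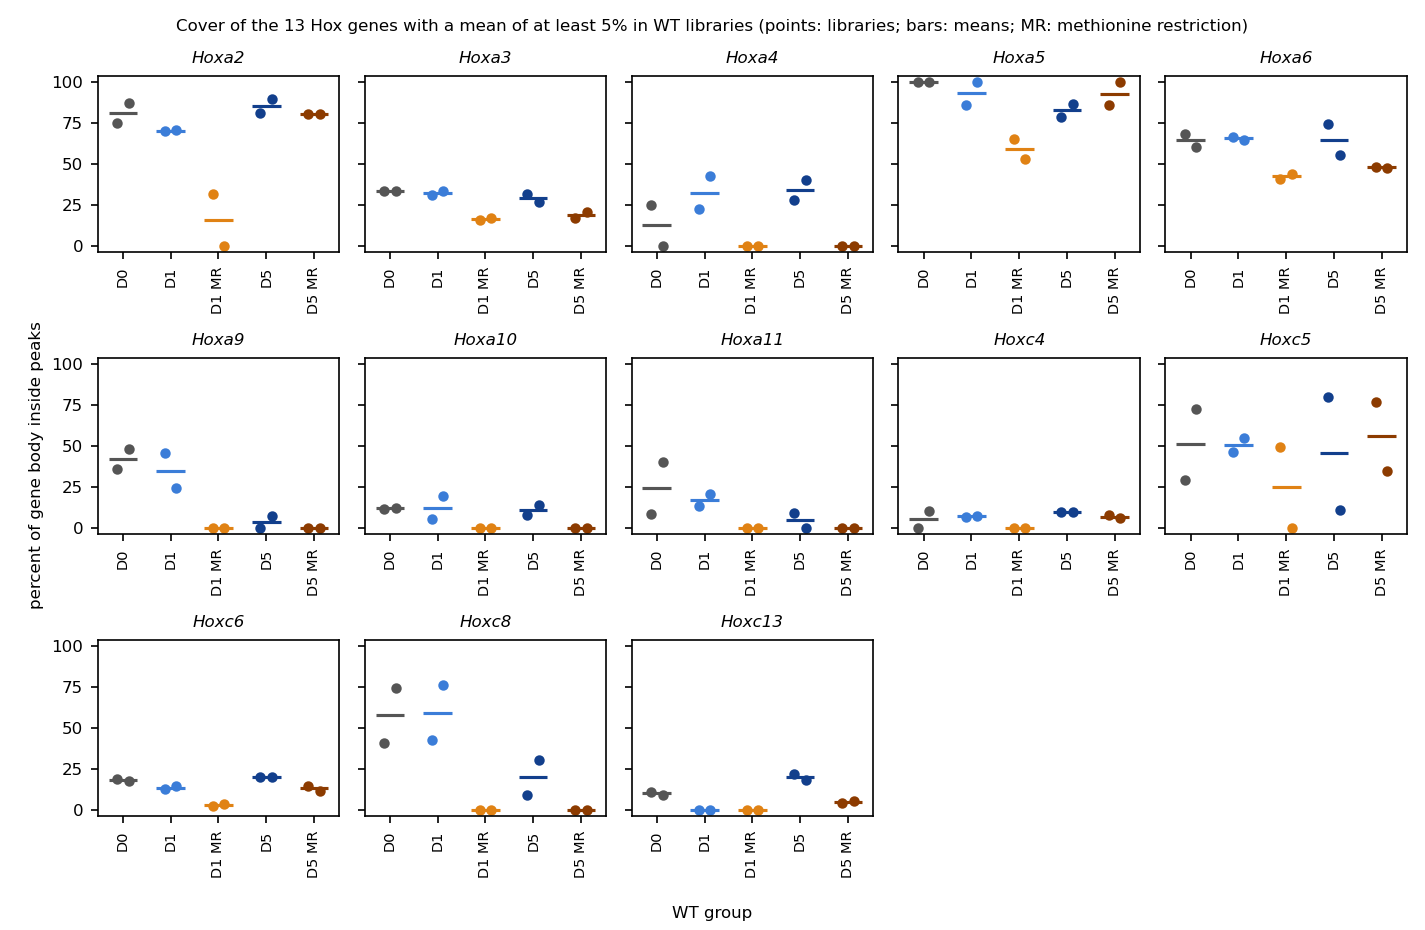
Percent of the gene body inside peaks (vertical axis) in the 5 WT groups (horizontal axis; MR, methionine restriction) for the 13 Hox genes with a mean of at least 5%. Points are libraries and bars are means of 2. Hoxa2 and Hoxa5 have their lowest group mean at restricted day 1, and are at 80.7% and 85.9% or more at restricted day 5.

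The difference between the days was itself tested. For Hoxa5 the restriction effect was 44.3 points more positive at day 5 than at day 1 (SE 9.01, limma adjusted p = 0.0305), and for Hoxc13 it was 15.6 points more negative (SE 2.58, adjusted p = 0.0124). These were 2 of 13 members, where 5.11% of all genes were called, 1.58% with a positive and 3.53% with a negative difference. Hoxa5 lost its call without replicate 2 of day 1 control, of restricted day 1, of day 5 control or of restricted day 5, or replicate 1 of day 5 control, and its adjusted p ranged from 0.0145 to 0.522 over 19 alternatives. Hoxc13 had no cover to lose at day 1, being at 0 in both control libraries, and its call was lost without either day 1 control replicate or either restricted day 5 replicate. Hoxa2 had a still greater difference of 49.98 points (SE 12.8) and was not called (adjusted p = 0.0688).

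In control medium, Hoxa9 and Hoxc13 were the Hox genes called between day 0 and day 5. From day 0 to day 5, Hoxa9, a gene of the posterior axis and of blood progenitors, fell from 35.7% and 48.0% to 0 and 7.18% (−38.3 points, SE 6.81, limma adjusted p = 0.00400). Hoxc13 rose from 10.9% and 8.90% to 21.8% and 18.1% (10.01, SE 1.82, adjusted p = 0.00436). These were 2 of the 13 tested, where 27.5% of all genes were called, 12% with more cover and 15.6% with less. The day 0 and day 5 libraries of these genes did not overlap. The rise of Hoxc13 was no longer called when only these groups were fitted or when peaks up to 1 kb apart were merged. At an unadjusted p under 0.05 there were 6 of the 13 members and 3669 of the 9681 genes.

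The path of these genes through day 1 differed. Hoxa9 was at 45.7% and 23.9% at day 1, so that its called fall lay between day 1 and day 5 (−31.2, SE 6.81, limma adjusted p = 0.0132). Hoxc13 was at 0 in both day 1 libraries, a fall of 9.92 points from day 0 (SE 1.82, adjusted p = 0.0206), and then rose by 19.9 points to day 5 (SE 1.82, adjusted p = 0.000159). The day 0 to day 1 call of Hoxc13 was lost without replicate 1 of day 0 or either day 1 control replicate, and when only these groups were fitted, a fit that called no gene at all although 1908 had an unadjusted p under 0.05. Between day 0 and day 1, 6.6% of all genes were called, 0.961% with more cover and 5.64% with less, and between day 1 and day 5 22.5%, 16.6% with more and 5.84% with less. Without day 5 control replicate 1 the call of Hoxa9 between day 1 and day 5 was lost.

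Other members did not pass the test over these days. Hoxc8 differed by −38.1 points from day 0 to day 5 (95% interval −68.8 to −7.36, limma adjusted p = 0.0702) and Hoxa5 by −17.3 (−32.0 to −2.66, adjusted p = 0.0817), with lower values in both day 5 libraries of each. Hoxa2 differed by 4.18 points (−16.7 to 25) and Hoxa6 by 0.564 (−13.4 to 14.6). Over the 13 members the median difference from day 0 to day 5 was −0.782 points, against −1.20 over all genes. The number of marked Hox genes was 3 and 5 in the day 0 libraries and 4 and 3 in those of day 5 in control medium.

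In each condition fewer Hox genes had cover in either Setd2 KO line than in the WT libraries, and of the KO libraries those of line 1 at day 5 had the most. In line 2, 1 member had cover, Hoxc6 with 2.10% at day 5 in control medium, against 13.1% of all genes with cover in at least 1 of its libraries. In line 1, 8 members had cover in some library, 20.5% against 41.5% of all genes. Both WT libraries were above both KO libraries for 12 of 39 members at day 0, 13 at day 1 in control medium, 4 at restricted day 1, 12 at day 5 in control medium and 7 at restricted day 5. Over all genes the same held for 46.8%, 45.7%, 42.9%, 42.5% and 38.6%.

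Averaged over the conditions, 9 members passed the filter across all 20 libraries and all 9 were higher in WT, where 97.8% of the 9023 genes tested were called, 97.7% higher and 0.0887% lower in WT. A gene that passes through its WT values has to differ, so the count describes the comparison and no more. The fit took the KO lines as the pair of libraries in each KO group, so the spread behind its SEs holds the difference between the lines as well as that between WT replicates, and the same lines recur in all 5 conditions. As a description, Hoxa5 was 80.5 points higher in WT (SE 4.41), Hoxa2 61.0 (SE 6.17), Hoxa6 49.5 (SE 4.51) and Hoxc5 44.0 (SE 9.56). After centring, 2 were higher and 5 lower in WT, and the median difference over all genes moved from 42.03 to −3.93 points.

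**Figure D5:**
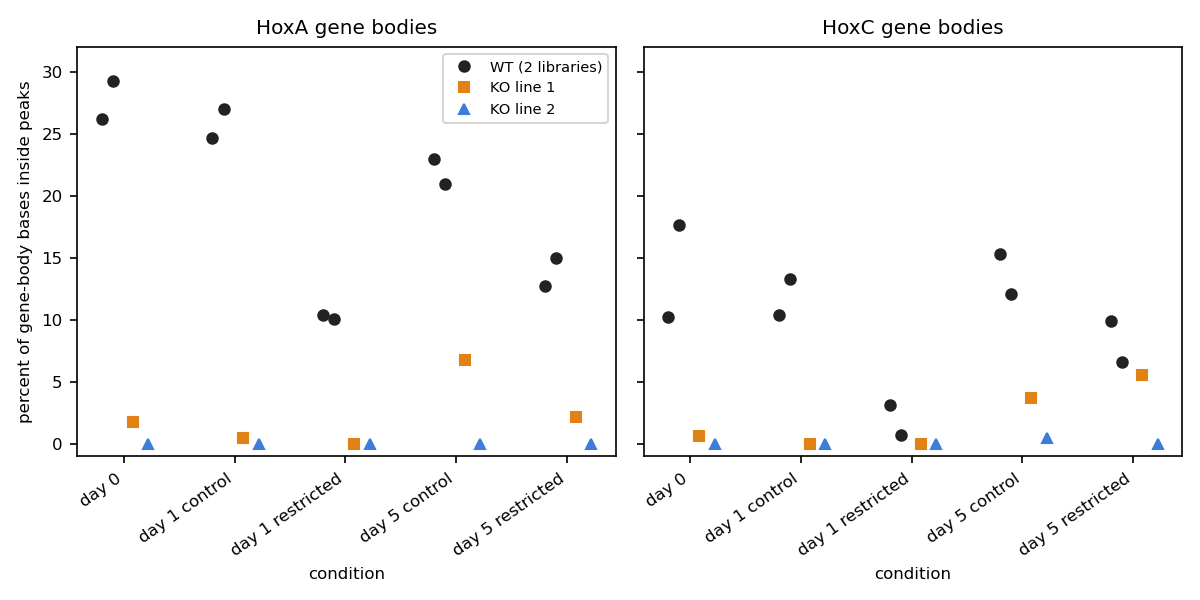
Percent of gene-body bases of HoxA (left) and HoxC (right) inside peaks (vertical axis) by condition (horizontal axis), for 2 WT libraries, KO line 1 and KO line 2. KO line 1 is highest at day 5, at 6.74% of HoxA in control medium and 5.50% of HoxC under restriction, and KO line 2 is at 0 apart from 0.450% of HoxC at day 5 in control medium.

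The 8 members with cover in line 1 all had cover in some WT library, though not always in the same condition. At day 5 in control medium Hoxa2 was at 56.9%, Hoxa5 at 27%, Hoxa6 at 24.3%, Hoxc6 at 17.3% and Hoxa3 at 8.16%. At day 0 Hoxa6 was at 20.7%, Hoxa5 at 16.8%, Hoxa3 at 2.87% and Hoxc6 at 2.75%, and at day 1 in control medium Hoxa3 alone had cover, 0.770%. No Hox gene had cover in line 1 at restricted day 1, the list of 791 peaks. At restricted day 5, 7 members had cover: Hoxa6 with 29.2%, Hoxc6 with 14.3%, Hoxc5 with 14.1%, Hoxc9 with 7.70%, Hoxa5 with 7.09%, Hoxa3 with 3.6% and Hoxc4 with 2.69%. Hoxc6 in line 1 was then within the range of its WT libraries, 11.6% to 14.7%, and Hoxc9 was above its WT libraries, both at 0. These single libraries have no replicate, and the peak names inside the lists call the lines replicates of a KO group, so that their identity rests on the labels.

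Genes that act with or upon the Hox genes were examined as lists. Of 9 genes for Hox cofactors, the PBX, MEIS and PREP homeodomain proteins that bind DNA beside Hox proteins, 6 were tested in WT cells. At restricted day 1 Pbx2 fell (−23.8 points, limma adjusted p = 0.0248), at restricted day 5 Pbx2 (−22.4, adjusted p = 0.0271) and Meis1 (−14.4, adjusted p = 0.00332), and none rose, where 35.8% and 41.4% of all genes fell. Between day 0 and day 1, 1 of the 6 fell, and from day 0 to day 5 2 fell, where 5.64% and 15.6% of all genes did. Meis2 was among the latter, at −32.6 points (limma adjusted p = 0.00541). The list's median differences were −7.16 at restricted day 1 and −5.24 at restricted day 5.

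Of 24 Polycomb genes, 23 were tested, and 11 fell and none rose at restricted day 1, where 35.8% of all genes fell, with a median of −12.8 points. Phf1 (−50.4), Cbx6 (−39.4) and Rbbp4 (−35.6) had the largest differences. At restricted day 5, 9 fell and 1 rose, Phc1 by 25.1 points (limma adjusted p = 0.00541), where 41.4% of all genes fell and 4.26% rose, with a median of −10.3. Suz12, a core subunit of the H3K27 methyltransferase complex, had a mean WT cover of 86.3%, and its catalytic partners Ezh1 and Ezh2 had 57.7% and 37.6%. All 11 genes for Trithorax proteins and H3K27 demethylases were tested, 4 of them fell at each day, against those same shares of all genes, and their medians were −8.77 and −9.60 points. Over all genes the medians were −8.11 at day 1 and −9.24 at day 5.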

How the data were processed

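The authors deposited 1 broad-peak list for each of 20 H3K36me3 libraries. The authors' values are a score per peak (deposited, not used), a fold enrichment ratio over background (used to describe and trim lists within a library) and −log10 p and −log10 q (deposited; the lowest −log10 q was 1.00). The build is GRCm38, per the submitters' processing notes. The peak caller, its control and the read filters are not given in the sources used here. Per the labels' protocols, Drosophila chromatin was spiked in, and no scaling by it was applied here. The input was not analysed here.

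Peaks were merged within a library, and cover was the percent of each RefSeq gene body (GRCm38.p6) inside them, with bases shared by genes counted for each. Cover was fitted with limma 3.58.1 (trend and robust) in R 4.3.3 over all protein-coding genes with a mean of at least 5% in the libraries fitted: 5 groups of 10 WT libraries, or, for WT against KO, 10 groups of 20 libraries (genotype by condition, with 1 library of each KO line in a KO group). Adjusted p-values are Benjamini-Hochberg over all genes tested, called under 0.05. Intervals are 95% limma intervals. Tables were built with Python 3.11.15 and pandas 2.3.3. The steps were tested on simulated data.

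Named genes are all members with a mean WT cover of at least 5%, all called or ever covered members, the 3 nearest coding genes on each side of a cluster (described in part), and up to 3 list genes of largest difference. The members and lists were chosen with earlier results of these data known. Motifs were searched in 300-base windows. Homeodomain sequences, planned for display, are not shown, and some genes are not reported by name here. Alternatives are in the closing section.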

Additional observations from a re-analysis of the deposited data

Results flagged for a closer look

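The restriction effect of Hoxa5 differed between the days by 44.3 points of cover, and that of Hoxc13 by −15.6 points, each by the limma test of the difference itself. At day 1 the mean of Hoxa5 was 93.0% in control medium and 59.1% under restriction, and at day 5 it was 82.7% and 92.9%. Hoxc13 was at 0 in both media at day 1, and at 19.9% and 4.37% at day 5.

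Some genes moved in opposite directions in WT cells and in KO line 1, which was not tested, since line 1 has 1 library per condition. At day 5 under restriction, Hoxa6 was 4.88 points higher in line 1, Hoxc4 2.69 and Hoxc9 7.70, while in WT cells each of these genes had less cover in both restricted libraries than in either control library. From day 0 to day 5 in control medium, line 1 rose by 5.29 points for Hoxa3 and by 10.2 for Hoxa5, while both WT day 5 libraries were below both day 0 libraries. The line 1 lists as a whole went from 17.7 to 74.1 Mb between these days, and its share of genes with any cover from 23.5% to 37.4%.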

How the results depend on the processing

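Peak lists hold no depth, so a gene listed at 0 may carry the mark below the calling threshold, and small genes rest on 1 or a few peaks. Without 1 library, the lone one left is assumed to vary like the other groups. With a library left out, the number of Hox genes called ranged from 5 to 11 for restriction at day 1 (main 9; the lowest without replicate 2 of either day 1 group), 1 to 5 at day 5 (main 4; 2 without day 5 control replicate 1), 0 to 3 for the difference between days (main 2; 0 without restricted day 5 replicate 2), 0 to 1 from day 0 to day 1, 1 to 4 from day 1 to day 5 (main 2; 4 without either day 0 replicate, 1 without day 5 control replicate 1) and 2 to 5 from day 0 to day 5 (5 without day 0 replicate 1). It stayed at 9 for WT against KO.

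In the order day 1, day 5, difference, day 0 to 1, day 1 to 5 and day 0 to 5, a −log10 q of at least 3 gave 4, 1, 0, 0, 0 and 1 Hox genes called, and lists trimmed to equal length 2, 0, 0, 0, 1 and 0. Trimmed lists gave 5 for WT against KO, where 5 were tested. Filters of 1% and of any cover gave 14 there. Centring gave 4 at day 1 and 0 from day 0 to day 1. Merging gaps of 1 kb gave 1, 0 and 1 for the difference, day 0 to 1 and day 0 to 5. Bases of no other gene, where Hoxa5 has none, gave 1 for the difference, as did limma without trend and robust, which gave 0 from day 0 to day 1, as did fitting only the groups compared.

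Replicate numbers do not pair the samples: differences of same-numbered libraries correlated at −0.427 between day 0 and day 1 control and at −0.0715 to 0.0574 elsewhere. With the replicate block the counts were 9, 6, 2, 1, 3 and 3, with all 20 WT gene calls kept. A crossed block for day 0 and day 1, chosen after seeing the data, called 0 genes.

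Of 672 repeats of the 29 called gene results, 581 kept the call, 80 lost it and 11 turned direction, all of them after centring. Then Hoxa10 was at 3.35 and Hoxc6 at 4.95 points for restriction at day 1, and Hoxa3 at 6.69, Hoxc13 at 1.38 and Hoxc6 at 10.3 at day 5. For WT against KO, Hoxa3 was at −21.7, Hoxa4 at −30.2, Hoxa9 at −29.9, Hoxc5 at −1.98, Hoxc6 at −36.1 and Hoxc8 at −18.7. The cause was not tested beyond the shift itself.

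The mean number of marked Hox genes was 4, 4, 1, 3.5 and 2.5 in WT at day 0, day 1 control and restricted, and day 5 control and restricted. At 25% cover it was 7.5, 7, 3, 6 and 4. At 75% it was 2, 1.5 and 0 in the first 3 of these. A −log10 q of at least 3 gave 2.5, 0 and 1.5 in day 1 control, day 1 restricted and day 5 restricted. Trimmed lists gave 2.5 at day 0 and day 1 control and 1.5 at restricted day 5. Bases of no other gene gave 2, 2, 0, 1.5 and 1.5. KO line 1 at day 5 in control medium went from 1 to 2 at 25% and to 0 at 75%, and under restriction from 0 to 1 at 25%. The number of Hox genes at 0 in all WT libraries was 22, and, in settings added after seeing the data, 23 at a −log10 q of at least 3, 22 with gaps merged and 30 in trimmed lists.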
